A study of Mus musculus with 10 samples.

Results

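The potassium channel genes of the embryonic cortical midline were taken as all symbols of the RNA table that start with Kcn and have a mean of at least 10 normalized counts over the 4 RNA libraries. Of 85 such symbols, 70 met that minimum, among 14324 genes that met it in a table of 16338. Rcor2 peaks were assigned to them by the gene named for each peak, which gave 23 of 6995 peaks. Rcor2 is a member of the CoREST family, scaffolds that bring the demethylase Kdm1a and histone deacetylases to chromatin.

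All tissue was midline cortex of C57/Bl6 mouse embryos on embryonic day 14.5. RNA-seq was made from 2 conditional knockout (cKO) libraries, genotype Rcor2f/f/EMX1-iCRE, and 2 control libraries, genotype Rcor2f/f. Both genotypes carry floxed Rcor2 alleles, and Emx1 drives Cre in progenitors of the dorsal telencephalon, so ventrally born interneurons, vessels and meninges are not expected to recombine. Chromatin immunoprecipitation (ChIP-seq) used wild type tissue, with 2 libraries each of an Rcor2 antibody, rabbit IgG and input. Nothing in the labels gives litters, pooling or the deleted exons, so p-values measure only the spread between these libraries.

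Potassium channels let potassium ions leave the cell, which sets the resting potential and ends action potentials. Most are built from pore-forming subunits gated by voltage, by calcium or sodium, or by ligands, and auxiliary subunits change their gating and transport. Several are classic neuronal genes that the repressor Rest, a partner of the CoREST scaffolds, keeps silent outside neurons, while others mark glia, pericytes or choroid plexus.

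Whole reads recovered from the normalized counts summed, over all listed genes, to 28309925 and 29783893 in the cKO and 30270598 and 27674987 in the controls. Rcor2 itself had 6363 and 6840 normalized counts in the cKO, against 7901 and 7257 in the controls (log2 change -0.20, SE 0.057, limma adjusted p 0.0541), so the count over the whole gene is a weak check of the labels. All 15 pan-neuronal and all 12 radial glia markers were measured. Of choroid plexus markers, Ttr, the main transcript of the mature tissue, had 9.25 and 5.87 normalized counts in the cKO and 19.5 and 14.1 in the controls, and Kcne2 was listed at 0 in all 4 libraries. The other tested markers of that list had positive changes, and 3 of them were called higher, as given below. The first cKO library stood apart in meningeal and mesenchymal markers, whose 7 genes summed to 8635 and 1992 normalized counts in the cKO and 1551 and 1398 in the controls. Calls among the channel genes that change without that library are named with the gene.

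Of the 70 potassium channel genes, 10 fell and 2 rose in the cKO at a limma adjusted p under 0.05, and 58 did not pass. That is 17.1% of the members, against 14.5% of all tested genes. In the lower direction it is 14.3% against 8.29% of all tested genes, and in the higher direction 2.86% against 6.16%. The median log2 change was -0.17 over the members and -0.012 over all tested genes, and 46 of 70 members had a negative change (65.7%, against 52.7% of all tested genes). Against the mean of both controls, the members' median was -0.19 in the first cKO library and -0.12 in the second. The cKO and control values did not overlap for 47 members, 36 lower and 11 higher in the cKO, while 61.0% of all tested genes had no overlap. The count of calls depended on the libraries, both among the members and over all tested genes. A pass or failure with 1 library left out therefore need not be particular to a channel gene. With 1 library left out, the members' median log2 change ranged from -0.188 to -0.119. The counts by role, family and list that follow rest on few genes. They are to be read against the shares of all tested genes, 8.29% lower and 6.16% higher.

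**Figure D1:**
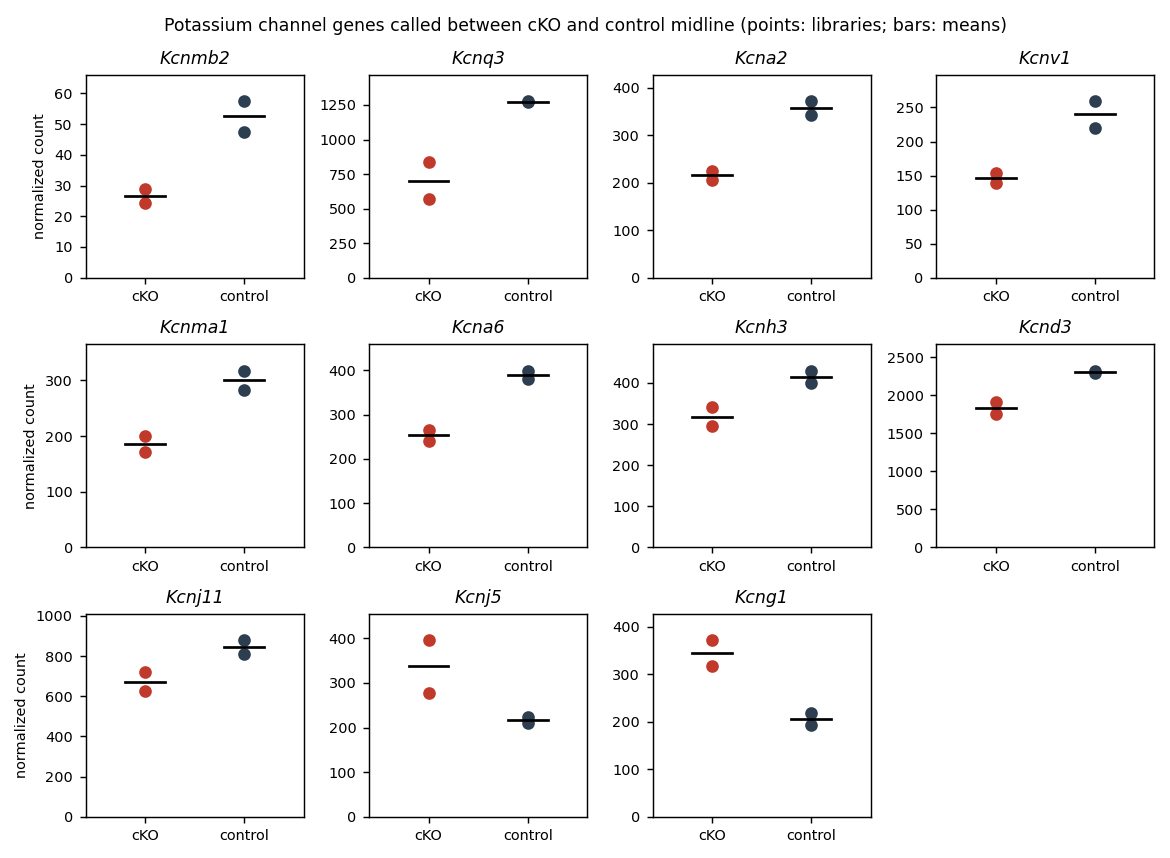
Normalized counts (y axis, from 0) of 11 of the 12 called potassium channel genes in the 2 cKO and 2 control libraries, with points for libraries and bars for means. In the 9 panels from Kcnmb2 to Kcnj11 both cKO libraries lie below both controls, and in Kcnj5 and Kcng1 both lie above.

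The Kv7 family forms slowly opening voltage-gated channels that restrain repetitive firing. Of its 5 measured pore genes 2 fell, with a family median log2 change of -0.35. Kcnq3 had 572 and 834 normalized counts in the cKO, against 1278 and 1270 in the controls. It fell by 0.88 on the log2 scale (SE 0.15, limma adjusted p 0.00909), with the first cKO library lower than the second. Kcnq5, another neuronal subunit of this family, had 282 and 212 normalized counts in the cKO and 345 and 282 in the controls, the higher cKO value lying just under the lower control, and did not pass (log2 -0.35, limma adjusted p 0.182). Without cKO replicate 1 it passed (log2 -0.55, limma adjusted p 0.0335). Kcnq1, known from the heart, had a change of -0.10 that did not pass.

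The Kv1 family, low-threshold channels of axons, had 6 measured pore genes, of which 2 fell. Kcna2 had 206 and 225 normalized counts in the cKO, against 372 and 342 in the controls (log2 -0.72, SE 0.11, limma adjusted p 0.00742). Kcna6 had 240 and 266 normalized counts in the cKO, against 400 and 382 in the controls (log2 -0.63, SE 0.10, limma adjusted p 0.00899). In both genes the groups were clearly apart. Kcna1, the most counted member of the family, had 609 and 654 normalized counts in the cKO and 854 and 697 in the controls and did not pass (log2 -0.29, limma adjusted p 0.0978), although it passed without cKO replicate 2 (adjusted p 0.0445). Kcna4, Kcna5 and Kcna3 did not pass, with log2 changes from -0.33 to 0.005.

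Among the other voltage-gated pores 2 of 15 fell. Kcnd3, which carries the fast inactivating A-type current of the Kv4 family, had 1747 and 1908 normalized counts in the cKO, against 2324 and 2291 in the controls (log2 -0.34, SE 0.058, limma adjusted p 0.00968). Its relative Kcnd2 had 389 and 423 normalized counts in the cKO and 403 and 424 in the controls, which overlap (log2 -0.03, limma adjusted p 0.876). Kcnh3, a channel of the ELK group enriched in forebrain, had 295 and 342 normalized counts in the cKO, against 401 and 430 in the controls, and fell by 0.39 on the log2 scale (limma adjusted p 0.0474). It lay near the threshold. It did not pass with edgeR, DESeq2, TMM scaling, quantile normalization or no filter, nor without 3 of the 4 libraries in turn. In the authors' deposited comparison it did not pass either. Kcnh4, also of the ELK group, had the largest positive change that did not pass, with 51.4 and 45.0 normalized counts in the cKO against 21.5 and 34.6 in the controls (log2 0.80, SE 0.29, limma adjusted p 0.105). Kcnb2, a Kv2 pore of delayed rectifier currents, had a change of -0.38 and passed without cKO replicate 2, and the Kv3 genes of fast firing Kcnc1 and Kcnc2 had -0.15 and -0.26. None of these 3 passed with all libraries and no replicate block, while Kcnb2 passed with the replicate number as a block. Kcnh7, the most counted gene of the EAG, ERG and ELK group, had 1153 and 1275 normalized counts in the cKO and 1125 and 1107 in the controls (log2 0.12, limma adjusted p 0.277). In all, 6 of 26 voltage-gated pore genes fell (23.1%, against 8.29% of all tested genes) and 0 rose, with a median log2 change of -0.19.

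Silent voltage-gated subunits form no channel alone and alter Kv2 channels. Of 5 measured, 1 fell and 1 rose. Kcnv1 had 139 and 154 normalized counts in the cKO, against 220 and 259 in the controls (log2 -0.71, SE 0.14, limma adjusted p 0.0143). Kcng1 had 372 and 317 normalized counts in the cKO, against 218 and 194 in the controls, and rose (log2 0.74, SE 0.13, limma adjusted p 0.00956). Both genes had separate groups, in opposite directions. Kcnf1, Kcns2 and Kcns3 had low counts and did not pass, with changes from -0.29 to -0.14.

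The large-conductance BK channel opens with calcium and voltage, and both its pore gene and a beta subunit gene fell. Kcnma1, the pore, had 171 and 200 normalized counts in the cKO, against 283 and 318 in the controls (log2 -0.70, SE 0.13, limma adjusted p 0.0121). Kcnmb2, a beta subunit that makes the channel inactivate, had 28.8 and 24.5 normalized counts in the cKO, against 57.5 and 47.6 in the controls (log2 -0.95, SE 0.25, limma adjusted p 0.0385). These counts rest on 28 and 25 reads in the cKO and 59 and 44 in the controls. Kcnmb2 did not pass with DESeq2 (adjusted p 0.218), nor without cKO replicate 2 or either control in turn. The authors' deposited comparison gives no adjusted p for it. The other beta subunit measured, Kcnmb4, had 361 and 427 normalized counts in the cKO and 467 and 477 in the controls and did not pass (log2 -0.27, limma adjusted p 0.125), but passed without cKO replicate 2 (adjusted p 0.0206). All 7 pore genes of the SK and Slo families, which open with calcium or sodium except for the pH-sensitive Kcnu1, had a negative change, with a median of -0.25, and 1 passed. Kcnu1, known from sperm, had a change of -0.34. The small-conductance SK genes Kcnn1, Kcnn2 and Kcnn3, which follow spikes with a slow hyperpolarization, had changes of -0.18, -0.25 and -0.16, none of which passed. Kcnn2 passed without cKO replicate 1 and with the replicate number as a block. The sodium-activated Kcnt1 and Kcnt2 had -0.18 and -0.28.

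Inward rectifiers hold cells near rest or answer to G proteins and metabolites. Of 9 measured, 1 fell and 1 rose. Kcnj11, the pore of the ATP-sensitive channel, had 627 and 718 normalized counts in the cKO, against 880 and 811 in the controls (log2 -0.33, SE 0.087, limma adjusted p 0.0402). Abcc8, the sulfonylurea receptor that assembles with it, had 533 and 576 normalized counts in the cKO, against 793 and 795 in the controls, and fell too (log2 -0.52, SE 0.076, limma adjusted p 0.00690). Kcnj5, a subunit of G protein-gated channels, had 396 and 278 normalized counts in the cKO, against 224 and 210 in the controls. It rose (log2 0.61, SE 0.16, limma adjusted p 0.0425), with the first cKO library far above the second, the order also seen in the mesenchymal markers. Without cKO replicate 1 its change was 0.36 (limma adjusted p 0.147) and the part of those cells in the result was not tested. Kcnj11 did not pass with edgeR (adjusted p 0.0770), DESeq2, quantile normalization or no filter, nor in the authors' deposited comparison. It did not pass without cKO replicate 1 either, where its change was -0.23. Kcnj5 did not pass with edgeR (adjusted p 0.0550), quantile normalization or no filter. Kcnj3, the partner subunit of Kcnj5, had a change of -0.24 (limma adjusted p 0.0853), and passed without cKO replicate 2. Kcnj10, the glial inward rectifier and the most counted of the family, had 1234 and 1113 normalized counts in the cKO and 1150 and 1136 in the controls, with no difference beyond the spread (log2 0.04, limma adjusted p 0.764). Kcnj4 had 16.5 and 13.7 normalized counts in the cKO and 5.85 and 13.0 in the controls (log2 0.71, limma adjusted p 0.335).

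Among 9 K2P leak channel genes, whose pores set resting conductance, 0 passed, and their changes ran from -0.61 to 0.59. Kcnk10, a mechanically and thermally sensitive leak channel, was the most counted with 3576 and 3705 normalized counts in the cKO and 3884 and 3797 in the controls (log2 -0.08, limma adjusted p 0.301). Kcnk12 had 11.3 and 17.6 normalized counts in the cKO and 19.5 and 24.9 in the controls (log2 -0.61, limma adjusted p 0.295). Kcnk1 had a change of -0.52 (limma adjusted p 0.119) and passed without cKO replicate 2.

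Of 11 auxiliary subunit genes, 1 fell, Kcnmb2 as given above. Kcnab1, a cytoplasmic beta subunit of Kv1 channels, had the largest change without a call, with 21.6 and 18.6 normalized counts in the cKO and 45.8 and 34.6 in the controls (log2 -0.96, SE 0.28, limma adjusted p 0.0579). It passed only with quantile normalization among the alternatives tried (adjusted p 0.0486). Kcnab2, the more counted beta subunit, had a change of -0.31 (limma adjusted p 0.113), and passed without cKO replicate 1. The KChIP genes encode calcium-binding subunits of Kv4 channels. Kcnip1, the most counted of them, had 2435 and 2379 normalized counts in the cKO and 2473 and 2278 in the controls, and Kcnip3, which also acts as a transcriptional repressor, had 1394 and 1426 in the cKO and 1409 and 1370 in the controls. Both had a log2 change of 0.02, with overlapping groups. Kcnip2 had 93.6 and 163 normalized counts in the cKO and 207 and 172 in the controls (log2 -0.60, limma adjusted p 0.140), and passed without cKO replicate 2 (adjusted p 0.00199). Kcnip4 had 31.9 and 15.7 normalized counts in the cKO and 23.4 and 24.9 in the controls, and its cKO libraries lay on either side of the controls. Kcne1l, a MinK-related subunit, had a change of 0.11 (limma adjusted p 0.307).

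The remaining 3 members are no channel subunits. Kcnq1ot1, the imprinted non-coding RNA that lies within Kcnq1, had 7095 and 6084 normalized counts in the cKO and 6174 and 6348 in the controls (log2 0.07, limma adjusted p 0.546), and passed without cKO replicate 2 (log2 0.18, adjusted p 0.0258). The sources used here do not say whether counting used strand. Reads of Kcnq1 and Kcnq1ot1, and of Kcnmb4 and its antisense Kcnmb4os2, therefore cannot be told apart where they overlap. The spans of the called genes Kcnd3, Kcnh3 and Kcnma1 also overlap other annotated genes, where the same limit holds. Kcnmb4os2 and Kcnrg had changes of 0.04 and -0.14 that did not pass.

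**Figure D2:**
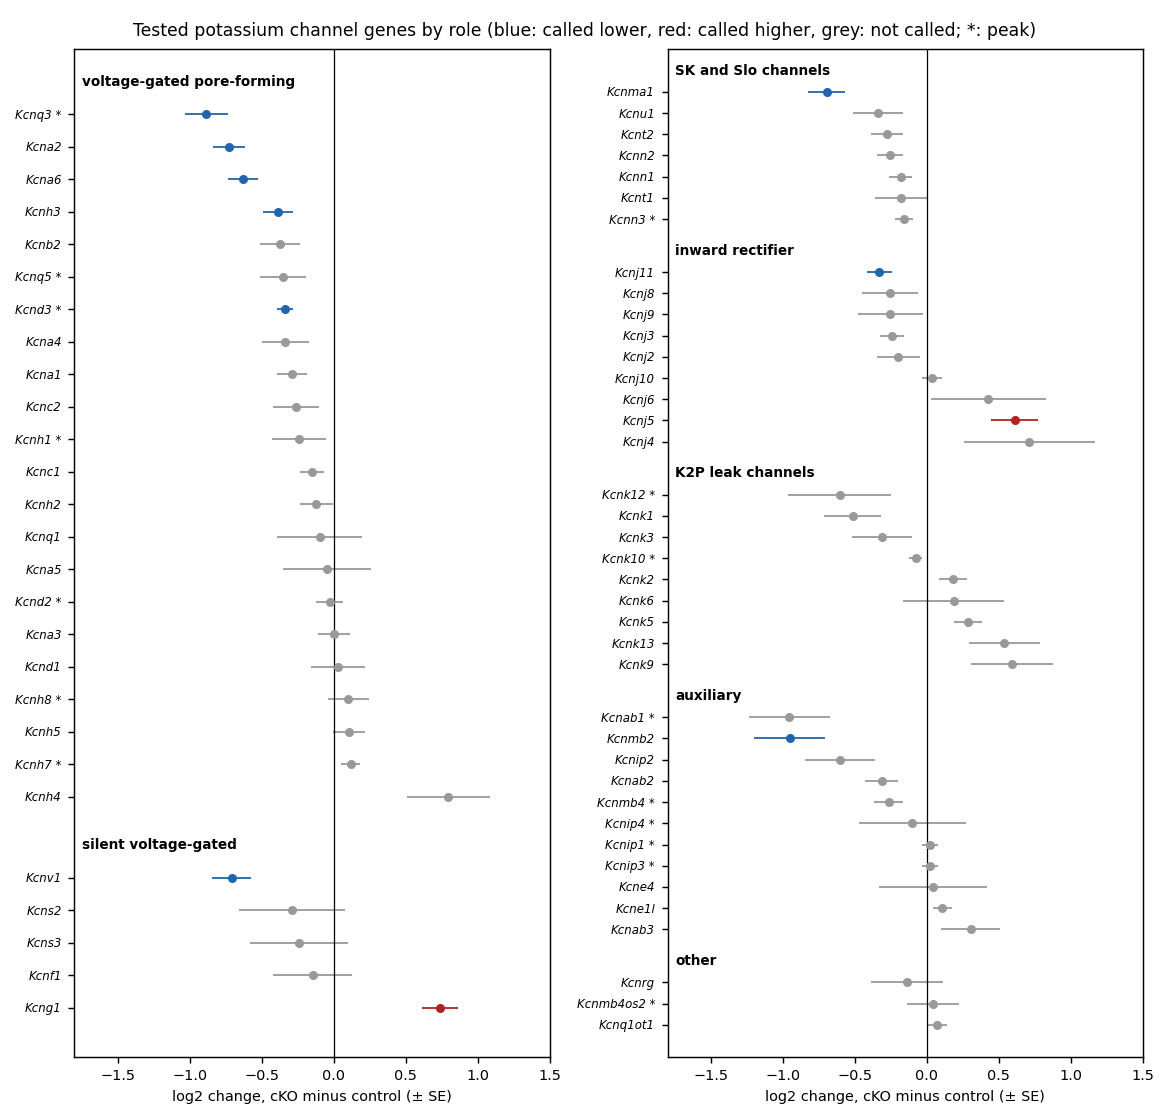
Log2 change, cKO minus control, with its SE (x axis) for 66 of the 70 tested potassium channel genes by role, blue where called lower, red where called higher and grey where not called, with a star for genes named for an Rcor2 peak. Changes run from -0.96 in Kcnab1 to 0.80 in Kcnh4, and all 7 SK and Slo genes lie left of 0.

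The 15 Kcn genes below the minimum had means up to 9.35 (Kcnj12), while the lowest members just above it were Kcnj4 with 12.2 and Kcne4 with 13.6. Kcnj13, a choroid plexus channel, had 0 reads in both cKO libraries and 1 read in each control. No fold change was given for these genes.

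The summed levels of cell type markers moved beside these genes. The 15 pan-neuronal markers summed to 136593 and 148013 normalized counts in the cKO and 189726 and 191065 in the controls, and 13 fell and 0 rose. The 14 markers of dividing cells summed to 119855 and 112066 in the cKO and 92961 and 99023 in the controls, and 11 rose and 0 fell. Of 9 tested markers of ventrally born interneurons, 5 fell, with sums of 1353 and 1446 in the cKO and 2182 and 2285 in the controls. The 26 voltage-gated pore genes summed to 11210 and 12512 normalized counts in the cKO and 15127 and 15000 in the controls. In bulk tissue, fewer neurons and less RNA per neuron cannot be told apart, and the part of cell makeup in the channel results was not tested. Of 12 radial glia markers, 5 rose and 1 fell, with sums of 127083 and 126050 in the cKO and 118298 and 117771 in the controls. None of 7 endothelial, 6 pericyte or 7 microglial markers passed; Kcnj8, the pericyte channel, had a change of -0.25 (limma adjusted p 0.421). Of 6 tested choroid plexus markers 3 rose, namely Otx2, Foxj1 and Folr1 with log2 changes of 0.55, 0.41 and 1.09; their list had a median of 0.48, and Ttr was its lowest with -1.07 and did not pass. Of 3 red blood cell markers 1 fell, and of 7 mesenchymal markers 3 rose. Of 4 oligodendrocyte precursor markers 1 rose, Pdgfra, which is also on the mesenchymal list.

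Genes that work with these channels were read from lists of 41 genes, 38 of them tested. Among them 14 fell and 3 rose (44.7% called, against 14.5% of all tested genes), with a median log2 change of -0.22. Of 23 channel partners 11 fell and 2 rose (56.5% called). Dpp6 and Dpp10, membrane partners that speed Kv4 channels, fell by 0.51 and 0.63 on the log2 scale (limma adjusted p 0.00895 and 0.0181). Lgi1 and Adam22, a secreted protein and its receptor near axonal Kv1 channels, fell by 0.87 and 0.33 (limma adjusted p 0.00857 and 0.00963). The scaffold genes Dlg2, Dlg4 and Ank3, the last an anchor of channels at the axon initial segment, fell by 0.33, 0.32 and 0.32. Lingo1, Calm2 and Calm3 fell as well, by 0.42, 0.17 and 0.21; calmodulin is a bound subunit of Kcnq and SK channels. Cntnap2, which clusters Kv1 channels along myelinated axons, rose (log2 0.24, limma adjusted p 0.0333), as did the scaffold Dlg1 (log2 0.20, limma adjusted p 0.0290).

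Ion pumps, pacemaker channels and cotransporters form short lists. Of 6 sodium potassium pump genes 2 fell (33.3%), among them the beta subunit gene Atp1b1 (log2 -0.37, limma adjusted p 0.0250). Of 4 pacemaker channel genes 1 fell (25.0%). Among all tested genes 8.29% fell and 6.16% rose, or 14.5% in either direction. Hcn3, the most counted, had a change of -0.23. Of 5 potassium chloride cotransporter genes 1 rose (20.0%), Slc12a7 (log2 0.35, SE 0.060, limma adjusted p 0.00963). Slc12a5, the neuronal chloride extruder, had a change of -0.41 (limma adjusted p 0.132), and Slc12a2, the most counted, -0.09.

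**Figure D3:**
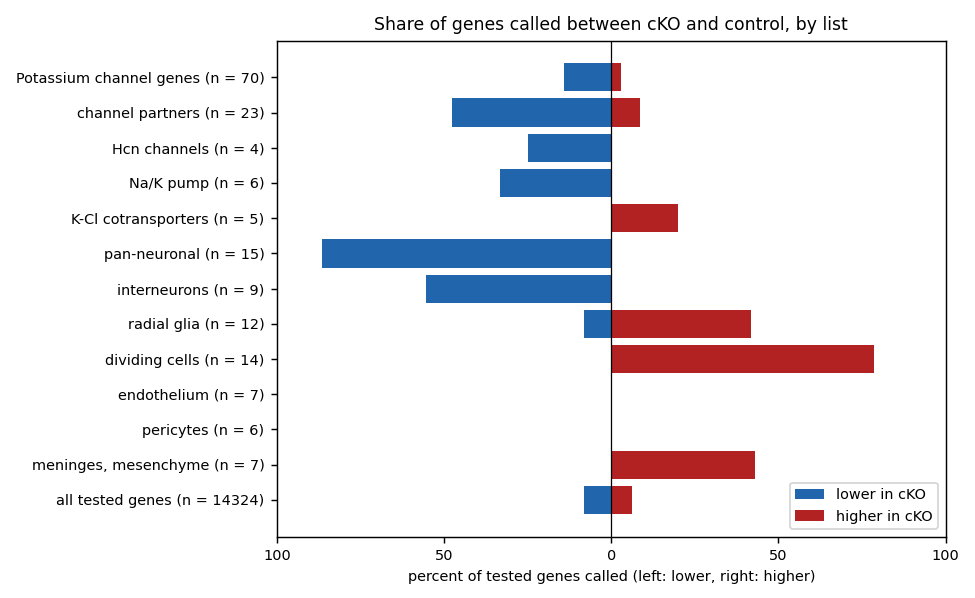
Percent of tested genes called lower (left) or higher (right) in the cKO for the potassium channel genes, 4 partner lists and 7 of the marker lists, with all tested genes at the bottom. The channel genes (14.3% lower, 2.86% higher) lie nearer to all tested genes than the pan-neuronal list, in which 13 of 15 fell.

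Rcor2 ChIP gave 23 peaks named for 17 potassium channel genes. That is 24.3% of the 70 members, against 20.9% of all tested genes with a peak. The classes given with the peaks placed 15 in gene bodies, 5 at promoters and 3 distally. In all peaks the gene body share was 36.0% and the promoter share 23.1%, and the members' were 65.2% and 21.7%. A class given only to peaks without a gene, intergenic, held 23.5% of all peaks. Members with a peak had a median span of 300.0 kb (1.82 to 1140 kb), against 32.5 kb (1.45 to 713 kb) for members without one. All tested genes with a peak had a median of 46.8 kb. One further peak was named for Kcna10, which is not a member.

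Of the 17 members with a peak, 2 fell and 0 rose (11.8%), against 8 that fell and 2 that rose among 53 without one (18.9%). Among all tested genes, 20.6% of those with a peak and 12.8% of those without one were called. In the lower direction these shares were 10% and 7.84%, and in the higher direction 10.6% and 4.98%. The 2 that fell were Kcnd3 and Kcnq3. The median log2 change was -0.10 with a peak and -0.18 without. Both lost their call without either control in turn, as did nearly all called members without a peak. Of the other members with a peak, Kcnq5 passed without cKO replicate 1 and Kcnmb4 without cKO replicate 2.

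The peak heights show how Rcor2 stood against its background. Over these 23 peaks the median height was 11 and 19 in the Rcor2 libraries, 4 and 3 in the IgG libraries and 16 and 14 in input, as coverage that is not scaled for depth. All 23 had both Rcor2 heights above both IgG heights, which 98.9% of all peaks had and which the calling of peaks against IgG favours. Both Rcor2 heights were above both input heights at 8 peaks (34.8%, 95% Clopper-Pearson interval 16.4 to 57.3%), against 40.3% of all peaks. This interval covers counting error only and treats the peaks as independent. They share the same libraries, and several lie close together in Kcnn3, so it understates the uncertainty. Without Rcor2 replicate 1, the shallower library in height, the share was 65.2%, against 74.7% of all peaks. The authors' fold enrichment over IgG ran from 2.47 to 5.50 with a median of 3.83, against 4.0 over all peaks.

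**Figure D4:**
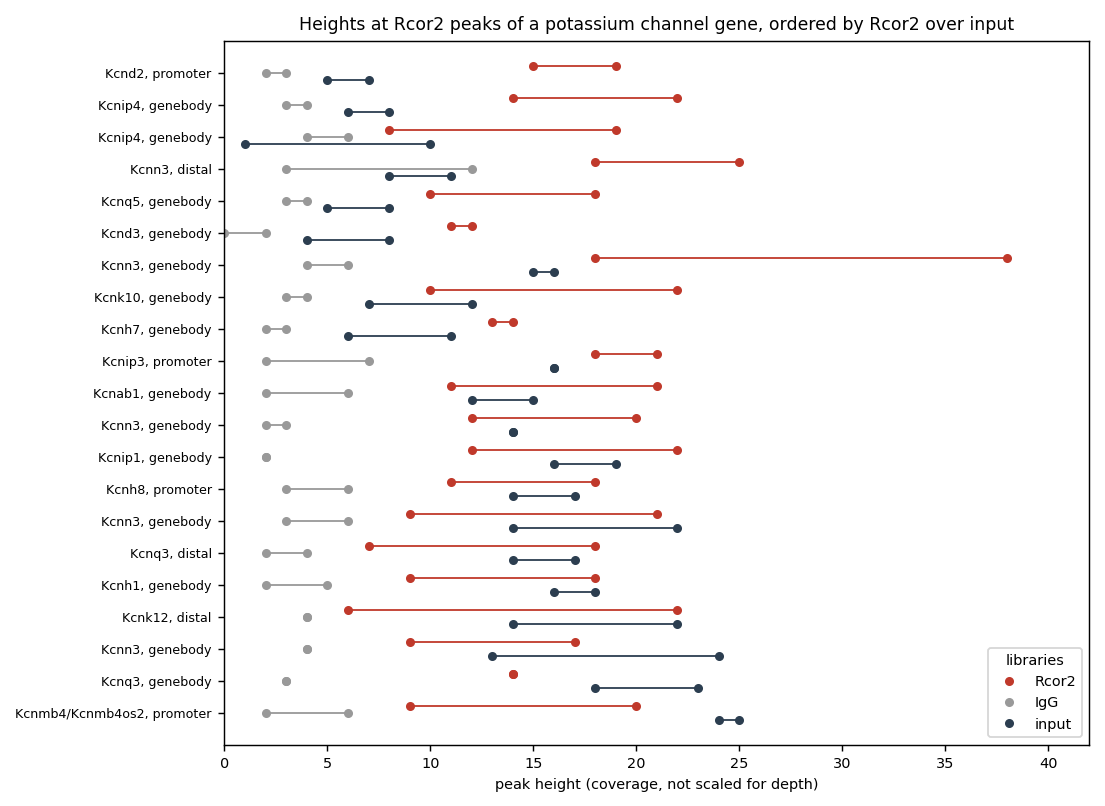
Peak heights (x axis, coverage not scaled for depth) in the 2 Rcor2, 2 IgG and 2 input libraries at 21 of the 23 peaks of potassium channel genes, ordered by Rcor2 over input. Rcor2 lies clear of IgG throughout, and clear of input only in part of the upper rows, such as the Kcnd2 promoter.

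The 8 peaks above input lay at Kcnd2, Kcnip3, Kcnip4, Kcnq5, Kcnd3, Kcnh7 and, with 2 peaks, Kcnn3. The promoter peak of Kcnd2 (chromosome 6, 21217377 to 21217665) had heights of 19 and 15 in Rcor2, 3 and 2 in IgG and 7 and 5 in input, the largest ratio over input among the members. Its summit lay 2171 bases downstream of the RefSeq start. The promoter peak of Kcnip3 (chromosome 2, 127482863 to 127483126) had 18 and 21 in Rcor2, 7 and 2 in IgG and 16 and 16 in input, and the highest fold enrichment of the members, 5.50. Its summit lay at -422 bases (upstream) from the nearest of 3 RefSeq starts of that gene. In both genes the RNA levels of cKO and control overlapped.

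Kcnn3, which encodes an SK channel, carried 5 of the peaks. A distal peak lay at -3589 bases (upstream) from its start, with heights of 18 and 25 in Rcor2, 12 and 3 in IgG and 11 and 8 in input. The other 4 sat within a stretch of the gene body from 89538778 to 89540410 on chromosome 3. The tallest of these had 18 and 38 in Rcor2, 6 and 4 in IgG and 16 and 15 in input, and at the remaining 3 the Rcor2 heights overlapped those of input. Kcnn3 had 960 and 949 normalized counts in the cKO and 1047 and 1088 in the controls and did not pass (log2 -0.16, limma adjusted p 0.121).

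At the 2 genes that fell and had peaks, the heights differed. The gene body peak of Kcnd3, far from its start, had 11 and 12 in Rcor2, 2 and 0 in IgG and 8 and 4 in input. The 2 peaks of Kcnq3 had mean Rcor2 heights below the mean of input, with 14 and 14 against 18 and 23 in input at the gene body peak and 7 and 18 against 17 and 14 at the distal one. Peaks below input on average were also found at Kcnh1, Kcnh8, Kcnip1, Kcnk12, Kcnmb4 and 2 of those at Kcnn3. Kcnip4 had 2 gene body peaks, of which 1 had 14 and 22 in Rcor2 against 6 and 8 in input, and the other 8 and 19 against 1 and 10. Kcnh7, Kcnk10, Kcnab1 and Kcnq5 had 1 gene body peak each.

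RefSeq promoter sequence (build GRCm38.p6, which mm10 shares) was matched for 49 of the 70 members, as 250 bases before each annotated start. The only such window that a peak overlapped was that of Kcnmb4os2 (chr10:116472913-116473162, plus strand), a non-coding RNA that overlaps the 5′ end of Kcnmb4 on the other strand. It is shown because it is where ChIP signal and a start coincide, and the capitals mark the 70 bases inside the peak.

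Kcnmb4os2: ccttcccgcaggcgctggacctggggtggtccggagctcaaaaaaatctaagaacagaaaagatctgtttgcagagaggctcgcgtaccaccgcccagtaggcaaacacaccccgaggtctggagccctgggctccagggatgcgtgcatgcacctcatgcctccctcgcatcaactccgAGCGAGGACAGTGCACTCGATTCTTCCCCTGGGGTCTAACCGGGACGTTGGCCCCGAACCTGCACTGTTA

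That peak had heights of 9 and 20 in Rcor2, 6 and 2 in IgG and 24 and 25 in input, the lowest Rcor2 to input ratio among the members. Neither gene of the pair passed in the RNA comparison.

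Windows were searched on both strands for CAGCACC and GGACAGC, letters from the left and right arms of the RE1 element that Rest binds, and for GGGCGG, the GC box; the motifs were searched independently, so GC boxes that run into each other are each counted. CAGCACC was found in 5 of 69 member windows (7.25%), against 5.73% of all 32851 windows. GGACAGC was found in 8 (11.6%), against 5.28%, and GGGCGG in 32 (46.4%), against 32.7%. The windows of members had a median GC content of 60.0%, against 52.4% of all windows. Among the 12 called genes, 6 had a window; GGACAGC was found at Kcnj5 and GGGCGG at Kcnj5 and Kcnma1. These windows are shown for a gene that rose (chr9:32344345-32344594, minus strand) and one that fell (chr14:24004206-24004455, minus strand), with capitals for any of the 3 motifs.

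Kcnj5: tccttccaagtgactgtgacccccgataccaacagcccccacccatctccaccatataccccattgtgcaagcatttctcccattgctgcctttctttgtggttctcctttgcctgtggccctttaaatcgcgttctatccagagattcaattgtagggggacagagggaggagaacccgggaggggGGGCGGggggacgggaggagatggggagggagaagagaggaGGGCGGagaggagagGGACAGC
Kcnma1: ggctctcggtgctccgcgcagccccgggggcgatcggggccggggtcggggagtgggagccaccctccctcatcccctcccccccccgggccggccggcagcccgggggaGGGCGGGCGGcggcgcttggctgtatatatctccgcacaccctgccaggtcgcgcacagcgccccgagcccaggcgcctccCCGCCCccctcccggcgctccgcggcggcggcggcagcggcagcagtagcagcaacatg

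The Kcnj5 window holds GGACAGC at its 3′ end and 2 GC boxes, and the Kcnma1 window holds 3 GC boxes, 2 of them overlapping. No Rcor2 peak was named for either gene, and a match of letters is a description, not a binding site.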

How the data were processed

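Midline cortex was used for all libraries, per the labels' protocols. Sonicated chromatin was precipitated after fixation with ethylene glycol bis(succinimidyl succinate) and formaldehyde. Per the submitters' processing notes, Trim Galore, HISAT2 2.1.0 and build mm10 were used, with no roles stated; no source used here gives the gene counter, strand use or peak caller. The RNA values as deposited are the authors' normalized counts (a signal per gene), from which whole reads were recovered (100% of values whole within 1e-04). The authors' deposited table also gives log2 fold changes, a test score and p-values. In it, 7 members fell and 2 rose at an adjusted p under 0.05, all of them also called here, where 12.7% of genes with an adjusted p pass. The deposited peak table gives each peak's height (signal as coverage), its pileup, a fold (ratio) over IgG and, by place and range, −log10 of p and q.

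limma-trend (limma 3.58.1, R 4.3.3) was fitted to log2(normalized count + 1), which understates changes of low genes, over the 14324 genes whose mean reached 10, without a replicate block. It had 2 residual and 6.21 prior degrees of freedom; p-values are two-sided with Benjamini-Hochberg adjustment over all these genes. With 2 libraries a group, the smallest p of an exact permutation test is 0.333. Alternatives used edgeR 4.0.16 and DESeq2 1.42.0 on recovered reads. The fit was tested on simulated data. Height ratios had 0.5 added to both sides. Named were all called members, members with a peak, the most counted of each family, the 5 largest changes without a call and Rcor2; of partners, the called genes and the most counted of each list, except that a few genes are not reported here by name, in the text or the figures, while counts include them. Further channel genes (such as Kcna3, Kcna4, Kcna5, Kcnb2, Kcnc2, Kcnf1, Kcnj9, Kcnk1, Kcnn2, Kcnq1, Kcnt1 and Kcnu1), the marker genes and the partner gene Slc12a5 are named to fill out a family or list and were chosen after their values were seen. The members and lists were chosen with earlier results of these data known, so their counts are no independent evidence. Figures used Python 3.11.15 and matplotlib 3.10.9.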

Additional observations from a re-analysis of the deposited data

How the results depend on the processing

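The number of calls depended on which library was left out, both among the members and over all tested genes. A call lost without a control therefore need not be particular to a channel gene. The members' median log2 change was -0.146 without control replicate 1 and -0.141 without control replicate 2, against -0.17 with all libraries. The counts of members that fell (10) and rose (2) ranged from 1 to 16 and from 0 to 3 when 1 library was left out. With edgeR, with quantile normalization and with no filter, 1 member rose; edgeR called 12.2% of all tested genes. Of the 12 called genes, 9 stayed called with edgeR and 9 with DESeq2, and none changed sign under any alternative. The cause of these changes was not tested.

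When 1 library was left out, the median log2 change ranged from -0.188 to -0.119 for all members (-0.17), from -0.255 to -0.114 for voltage-gated pores, from -0.477 to 0.15 for silent subunits, from -0.153 to -0.029 for inward rectifiers, from -0.052 to 0.213 for K2P channels and from -0.184 to -0.06 for auxiliary subunits. It ranged from -0.145 to -0.094 with a peak, from -0.239 to -0.118 without one, from -0.254 to -0.143 for all partners, from -0.314 to -0.15 for channel partners, from -0.363 to -0.149 for pacemaker channels and from -0.18 to -0.034 for the pump. The auxiliary median (-0.10) was -0.014 with edgeR, -0.008 with DESeq2, -0.177 with quantile normalization and 0.02 with a minimum of 50. That minimum also gave 0.015 for silent subunits (-0.24), -0.077 for K2P channels (0.18), -0.254 for members without a peak (-0.18) and -0.052 for those with one (-0.10). Quantile normalization gave 0.098 for K2P channels. With a peak, the median was -0.063 with edgeR, -0.062 with DESeq2, -0.134 with quantile normalization and -0.077 with a pseudocount of 10.

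Among the genes that the naming rule chose, these changed sign, none of them called, when 1 library was left out: Kcnd2 ranged from -0.088 to 0.033 (0.009 without control replicate 2), Kcnip1 from -0.039 to 0.08, Kcnip4 from -0.593 to 0.388, Kcnj10 from -0.039 to 0.11 and Kcnq1ot1 from -0.041 to 0.181. Of the genes named beside these, Kcna3, Kcna5, Kcnq1 and Kcnrg had changes of opposite sign in the single cKO libraries.

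The replicate numbers are not known to pair animals. With the replicate number as a block, 12 members fell and 2 rose, Kcnb2 and Kcnn2 being added. Deviations of same-numbered libraries correlated at 0.242 over genes.

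Peaks at or above the median fold enrichment, or the median −log10 q, left 9 peaks at 7 members in each case. Assignment by gene span plus 5000 bases gave 25 peaks at 20 members, adding Kcnma1, Kcnn1 and Kcnq1. The share of peaks above input ranged from 34.8 to 65.2% when 1 library was left out.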

Other observations

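Several channel genes lie in genomic clusters, within gaps of at most 300.0 kb. On chromosome 3, Kcna2 fell (log2 -0.72, limma adjusted p 0.00742), while its neighbour Kcna3 had a change of 0.005 (limma adjusted p 0.981). On chromosome 6, Kcna6 fell by 0.63 on the log2 scale, while its neighbours Kcna1 and Kcna5 had changes of -0.29 and -0.05 that did not pass; the differences between neighbours were not tested. On chromosome 7, Kcnj11 fell by 0.33, and Kcnc1 of the same cluster had a change of -0.15 (limma adjusted p 0.258). On chromosome 1, the neuronal Kcnj9 and the glial Kcnj10 had changes of -0.25 and 0.04, neither of which passed.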
